A study of Mus musculus with 2 samples.

Results

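The guanylate-binding proteins and immunity-related GTPases were followed through the cells of the mouse peritoneal cavity as 10 genes of 28692 listed in each library, 5 of them guanylate-binding proteins (Gbp2, Gbp3, Gbp4, Gbp5 and Gbp7) and 5 immunity-related GTPases (Igtp, Irgm1, Irgm2, Iigp1 and Ifi47). They were picked by symbol, with earlier results of these data known, so their levels across cell types are a description with no test. Droplet single-cell RNA sequencing with 3′ tag counting gave 1 library from germ-free WT mice and 1 from germ-free Xbp1dIEC mice, both of the C57BL/6 strain and 10 weeks old. Each library pooled equal numbers of peritoneal cells from 4 male mice. Xbp1dIEC is the usual name for mice that lack Xbp1, which encodes a factor that the unfolded protein response switches on, in the intestinal epithelium. The Cre driver is not given in the sources used here, and peritoneal cells are not the cells targeted. With 1 library per genotype no test between genotypes exists, cells of a library are not replicates, and every interval given is a 95% interval that covers counting error only.

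Guanylate-binding proteins, or GBPs, are large GTPases that interferons induce. They coat the vacuoles of intracellular parasites and bacteria and take part in inflammasome activation. Immunity-related GTPases, or IRGs, are smaller interferon-induced GTPases that are abundant in mice. Irgm1, Irgm2 and Igtp encode regulatory members that sit on the cell's own membranes, and Iigp1 and Ifi47 encode effector members that load onto pathogen vacuoles. IRF1 is among the factors through which interferon gamma reaches these genes, and macrophages are the cells in which the proteins have been studied most.

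The genes lie in clusters. On the GENCODE annotation of GRCm38, Gbp5, Gbp7, Gbp3 and Gbp2 follow each other on the plus strand of chromosome 3 between 142493978 and 142638008, with Gbp2b, a family gene outside the 10, between Gbp3 and Gbp2. Gbp4 lies on the minus strand at chr5:105115767-105139586 and overlaps Gbp8 and Gbp9. Irgm1 lies on the minus strand at chr11:48861968-48871683, Ifi47 at chr11:49076587-49096974 and Igtp and Irgm2 at chr11:58199556-58207591 and chr11:58199618-58222782, all 3 on the plus strand, and Iigp1 lies on chromosome 18. Igtp overlaps Irgm2 and Ifi47 overlaps Olfr56 on the same strand, so the split of reads within these pairs, and within the Gbp4 group, is uncertain, as it is between near-identical copies elsewhere in the family.

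The start regions of 6 genes on which the results turn were read from 250 bases before to 50 bases after the RefSeq start on GRCm38.p6, each read 5′ to 3′ on the gene's own strand. Capitals mark matches to GAAANNGAAA or its reverse complement TTTCNNTTTC, the core of the interferon-stimulated response element. The windows are chr3:142530086-142530385, chr3:142594597-142594896 and chr3:142620413-142620712 on the plus strand, chr11:58199306-58199605 and chr11:49076337-49076636 on the plus strand, and chr11:48871371-48871670 on the minus strand.

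Gbp7: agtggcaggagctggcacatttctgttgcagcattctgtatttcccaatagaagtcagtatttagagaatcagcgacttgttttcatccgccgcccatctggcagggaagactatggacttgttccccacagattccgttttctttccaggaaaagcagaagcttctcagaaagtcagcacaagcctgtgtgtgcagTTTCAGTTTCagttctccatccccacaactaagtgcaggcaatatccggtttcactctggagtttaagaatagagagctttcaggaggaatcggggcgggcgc
Gbp2b: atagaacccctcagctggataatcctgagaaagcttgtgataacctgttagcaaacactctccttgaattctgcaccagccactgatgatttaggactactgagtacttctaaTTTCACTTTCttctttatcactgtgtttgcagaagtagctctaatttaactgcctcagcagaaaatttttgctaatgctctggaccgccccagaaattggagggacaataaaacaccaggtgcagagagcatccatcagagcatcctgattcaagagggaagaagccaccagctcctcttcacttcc
Gbp2: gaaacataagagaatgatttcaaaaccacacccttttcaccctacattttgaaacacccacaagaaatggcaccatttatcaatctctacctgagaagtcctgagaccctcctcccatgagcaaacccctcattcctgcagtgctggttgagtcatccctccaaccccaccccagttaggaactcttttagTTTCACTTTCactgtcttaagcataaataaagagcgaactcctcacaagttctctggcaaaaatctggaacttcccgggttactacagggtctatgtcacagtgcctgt
Igtp: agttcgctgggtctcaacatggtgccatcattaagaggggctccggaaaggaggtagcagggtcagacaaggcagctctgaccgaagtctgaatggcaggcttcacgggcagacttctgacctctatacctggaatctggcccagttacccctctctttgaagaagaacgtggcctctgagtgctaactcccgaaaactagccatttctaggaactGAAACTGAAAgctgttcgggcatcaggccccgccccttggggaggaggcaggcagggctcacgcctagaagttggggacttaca
Irgm1: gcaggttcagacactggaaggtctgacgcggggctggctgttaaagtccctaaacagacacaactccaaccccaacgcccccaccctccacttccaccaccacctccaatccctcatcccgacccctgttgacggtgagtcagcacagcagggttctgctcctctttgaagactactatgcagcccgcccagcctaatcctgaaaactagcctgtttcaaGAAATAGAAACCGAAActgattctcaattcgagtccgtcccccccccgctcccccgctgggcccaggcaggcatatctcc
Ifi47: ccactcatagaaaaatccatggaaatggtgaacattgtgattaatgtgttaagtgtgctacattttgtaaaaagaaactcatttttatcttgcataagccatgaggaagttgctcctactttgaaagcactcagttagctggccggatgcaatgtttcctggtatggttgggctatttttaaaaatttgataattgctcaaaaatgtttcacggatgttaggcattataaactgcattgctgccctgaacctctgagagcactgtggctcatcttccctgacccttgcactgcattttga

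RefSeq windows were found for 8 of the 10 genes, and 7 of these 8 held a match, against 3.99% of 27025 genes with a window (3.44% of 32851 windows). In Gbp7 the match spanned bases -53 to -44 from the start, in Gbp2 bases -59 to -50, in Igtp bases -34 to -25, and in Irgm1 a pair of overlapping matches spanned bases -30 to -15. In Gbp2b it lay farther out, at bases -137 to -128. The Ifi47 window held none, which says only that these letters are absent from this window. The gamma-activated sequence TTCNNNGAA, which reads the same on the other strand and was searched in the same windows, was in 4 of the 8 genes with a window (Igtp, Irgm2, Gbp5 and Gbp7) against 9.55% of genes. The Igtp and Irgm2 windows shared a run of 61 identical bases. A match is a description of the letters and was not tested as a binding site.

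The WT library held 6204 barcodes with 56229330 UMIs in all and the Xbp1dIEC library 6246 barcodes with 49703442, at medians of 8324 and 7280 UMIs per barcode. A UMI counts 1 captured transcript tag, so levels are CPM, counts scaled to the total UMIs of the gated cells, with no scaling by length. The libraries shared 58 barcode sequences, 55 of them among kept cells. Cells were gated by UMIs of lineage genes, none of them one of the 10, which put 55.7% of 6058 kept WT cells and 57.2% of 6113 Xbp1dIEC cells into 6 gates. The macrophage gate held 2365 WT and 2425 Xbp1dIEC cells, the Cd209a gate 81 and 78, the B-1 gate 385 and 588, the B-2 gate 268 and 175, the T gate 255 and 203, and the NK gate 22 and 28. Marker genes outside the gating rules were highest in their own gates for macrophages (67134 and 75686 CPM over 7 markers), Cd209a cells (56188 and 55709 CPM, mostly class II antigen presentation), B-1 cells, B-2 cells, T cells and NK cells (21395 and 24587 CPM over 5 markers). The NK gate held only 83900 and 88707 UMIs, and its WT cells carried 9249 CPM of the Cd209a marker list against 1060 CPM in Xbp1dIEC, so values in it are coarse. Median depth per cell ran from 3046 UMIs in the Xbp1dIEC NK gate to 9952 in WT macrophages. Macrophage RNA was found outside its cells: Lyz2 in the lymphocyte gates stood at 1.61% to 2.92% of its level in the macrophages of the same library, and Apoe at 3.31% to 5.92%. Xbp1 itself was at 111 CPM in WT and 119 in Xbp1dIEC macrophages, and at 25.1 and 41.4 CPM in B-1 cells, which does not check the labels because the deletion is in another tissue.

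T and NK cells carried the highest summed level of the 10 genes, and macrophages, Cd209a cells and B-2 cells the lowest. The summed level was 439 CPM in WT and 399 in Xbp1dIEC T cells and 405 and 530 CPM in NK cells. It was 196 and 283 CPM in B-1 cells, 161 and 138 in macrophages, 154 and 175 in B-2 cells, and 149 and 123 in Cd209a cells. In both libraries the T and NK intervals overlapped each other and lay above that of B-1 cells, which lay above the next gate. In WT the intervals of macrophages, B-2 cells and Cd209a cells overlapped, while in Xbp1dIEC B-2 cells stood above macrophages.

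**Figure D1:**
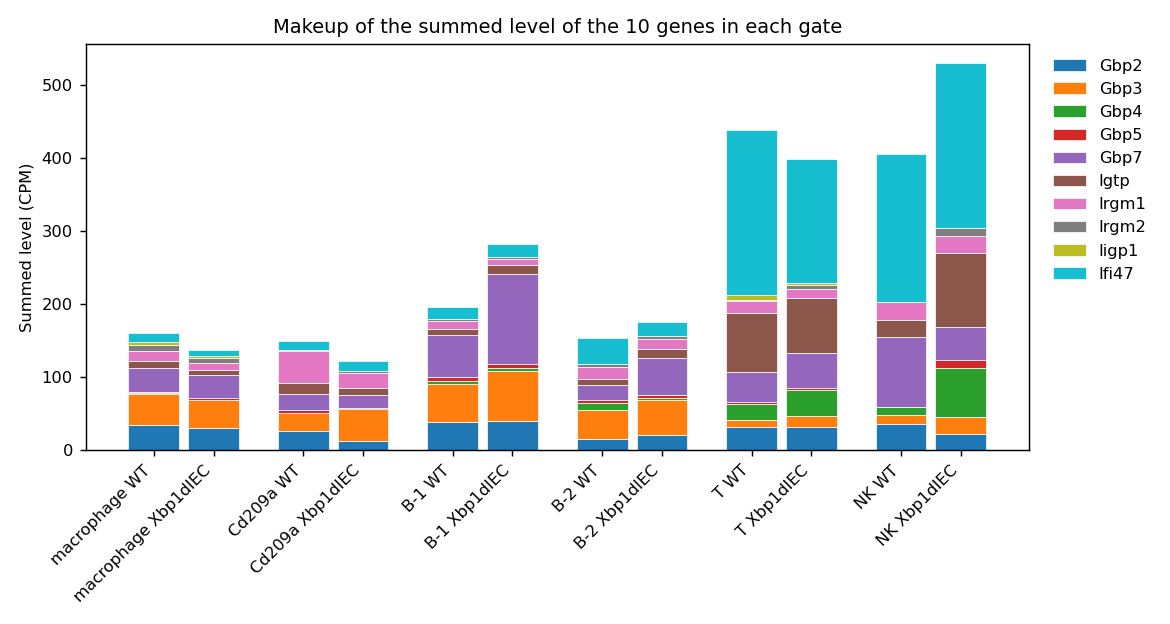
Stacked bars of the level in CPM of each of the 10 genes, by gate and genotype (1 library each, no error bar). Ifi47 fills 51.6% of the WT T cell bar and 42.7% of the Xbp1dIEC one, while Gbp7 grows from 29.1% to 43.5% of the B-1 bar.

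Which gene made up the sum differed between cell types. GBPs supplied 70.2% of the UMIs of the 10 genes in WT and 74.3% in Xbp1dIEC macrophages, and 80.2% and 85.2% in B-1 cells. In T cells they supplied 24.4% and 33.2%, the rest being IRGs. T cells were set against macrophages with a line at 1.5-fold, and 5 of the 10 genes were higher in WT T cells and 2 lower, against 26.5% of 10473 genes higher and 33.7% lower. In Xbp1dIEC 4 were higher and 1 lower, against 28.3% and 31.7% of genes. B-1 cells over macrophages gave 3 higher and 2 lower in WT (21.8% and 33.9% of genes) and 6 higher and 2 lower in Xbp1dIEC (24.5% and 30.1% of genes). T cells over B-1 cells gave 4 higher and 2 lower of 8 measured in WT (20.4% and 22.6% of genes) and 4 higher and 3 lower of 9 in Xbp1dIEC (20.6% and 23.9% of genes). A large share of all genes passed this fold between cell types, so nothing is read from the counts themselves, and the sizes are given by gene.

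Ifi47, an effector IRG, had the widest range of levels in CPM. It stood at 226 CPM (198 to 257) in WT and 171 CPM (144 to 201) in Xbp1dIEC T cells, and at 203 (118 to 324) and 226 CPM (138 to 348) in NK cells. The next gate was B-2, at 35.8 and 18.1 CPM, and the rest were lower, with B-1 cells at 16.5 and 17.8 CPM, macrophages at 13.1 and 8.69 CPM, and Cd209a cells at 11.2 and 13.6 CPM. The T and NK intervals overlapped and lay apart from those of the other 4 gates in both libraries. The T over macrophage log2 ratio was 4.11 (3.86 to 4.36) in WT and 4.30 (3.97 to 4.62) in Xbp1dIEC. T cell RNA outside T cells was scarcer than Ifi47: Trac, the T cell receptor alpha constant gene, was in macrophages at 0.155% and 0.137% of its T cell level, and Ifi47 at 5.78% and 5.09% of its own. With cells thinned to 2000 UMIs apiece, 31.8% of WT T cells (26.1% to 37.9%) and 27.6% of Xbp1dIEC T cells (21.6% to 34.3%) had an Ifi47 UMI, against 2.66% and 1.65% of macrophages. Without thinning the shares were 54.1% and 47.8% of T cells and 11.6% and 6.64% of macrophages. Within T cells Ifi47 was at 264 and 187 CPM in the Cd8 subset and at 202 and 171 CPM in Cd8-negative cells.

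Iigp1, the other effector IRG, was scarce. It gave 87 UMIs (3.62 CPM) in WT and 49 UMIs (2.47 CPM) in Xbp1dIEC macrophages, and 7 and 2 UMIs in T cells. No UMI was found in the Cd209a, B-1, B-2 or NK gates of either library. A count of 0 allows up to 0.983 CPM in WT and 0.596 CPM in Xbp1dIEC B-1 cells, below the macrophage level. In Cd209a cells it allows up to 5.91 and 6.29 CPM, so absence from Cd209a cells was not detectable at this depth.

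Among the regulatory IRGs, Igtp shared the T cell pattern. It was at 80.9 CPM (64.5 to 100.3) in WT and 75.9 CPM (58.4 to 96.9) in Xbp1dIEC T cells, and between 7.32 and 14.4 CPM in macrophages, Cd209a cells, B-1 cells and B-2 cells. NK cells gave 23.8 and 101.5 CPM from only 2 and 9 UMIs. Its T over macrophage log2 ratio was 3.02 (2.64 to 3.39) in WT and 3.37 (2.93 to 3.81) in Xbp1dIEC. Irgm2, which overlaps Igtp, did not share the pattern: it was at 8.45 and 6.67 CPM in macrophages and 1.95 and 5.93 CPM in T cells, the latter from 2 and 5 UMIs. Irgm1 varied less, lying between 9.37 and 15.8 CPM in macrophages, B-1, B-2 and T cells of both libraries. Its highest level with more than a few UMIs was in WT Cd209a cells, at 44.9 CPM (29.8 to 64.9; 28 UMIs), against 20.5 CPM (10.6 to 35.8; 12 UMIs) in Xbp1dIEC. The Cd209a over macrophage log2 ratio of Irgm1 was 1.81 (1.20 to 2.37) in WT and 0.99 (0.01 to 1.83) in Xbp1dIEC. In Cd209a cells 2 of the 8 measured genes were past 1.5-fold above macrophages in each library, against 21.5% of genes in WT and 22.9% in Xbp1dIEC, and 2 and 3 were past it below, against 22.1% and 23.4%.

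The GBPs split into broadly found genes and rare ones. Gbp2, whose protein in mice is recruited to Toxoplasma vacuoles, was at 35.2 and 30.6 CPM in macrophages, 38.7 and 40.2 in B-1 cells and 31.2 and 32.0 in T cells, and the B-1 and T intervals overlapped in both libraries. B-2 cells had lower values, at 15.2 and 21.3 CPM, but their intervals overlapped those of T cells in both libraries and of macrophages in Xbp1dIEC. Cd209a cells had 25.65 and 11.9 CPM of Gbp2. Gbp3 was at 51.7 and 68.4 CPM in B-1 cells, 42.3 and 38.6 in macrophages and 40.1 and 46.9 in B-2 cells. Cd209a cells had 25.65 and 44.3 CPM of Gbp3, and T cells only 9.75 and 15.4. Gbp7, linked to autophagy and to the phagocyte oxidase in mouse macrophages, was highest in B-1 cells among the larger gates, at 57.1 and 122.8 CPM, with 33.2 and 31.1 CPM in macrophages and 41.0 and 47.4 in T cells. These 3 genes were thus found in both myeloid cells and lymphocytes.

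Gbp4 was lymphoid. It gave 9 UMIs (0.37 CPM) and 4 UMIs (0.20 CPM) in the macrophages of WT and Xbp1dIEC although these were the most deeply counted gate, and 22.4 CPM (14.2 to 33.7) and 35.6 CPM (24.0 to 50.8) in T cells. The T over macrophage log2 ratio was 5.90 (4.74 to 7.20) in WT and 7.46 (5.96 to 9.43) in Xbp1dIEC, the latter resting on 4 macrophage UMIs. B-1 cells had 4.00 and 3.72 CPM and B-2 cells 9.72 and 3.20 CPM. NK cells had 11.9 and 67.6 CPM from only 1 and 6 UMIs. Cd209a cells gave 0 UMIs, which allows up to 5.91 and 6.29 CPM, so a level like that of B-1 cells was not detectable there. Gbp5, which promotes inflammasome activation, was low throughout, with 1.75 and 1.87 CPM in macrophages and 5.87 and 5.66 CPM in B-1 cells, where the intervals of the libraries overlapped.

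**Figure D2:**
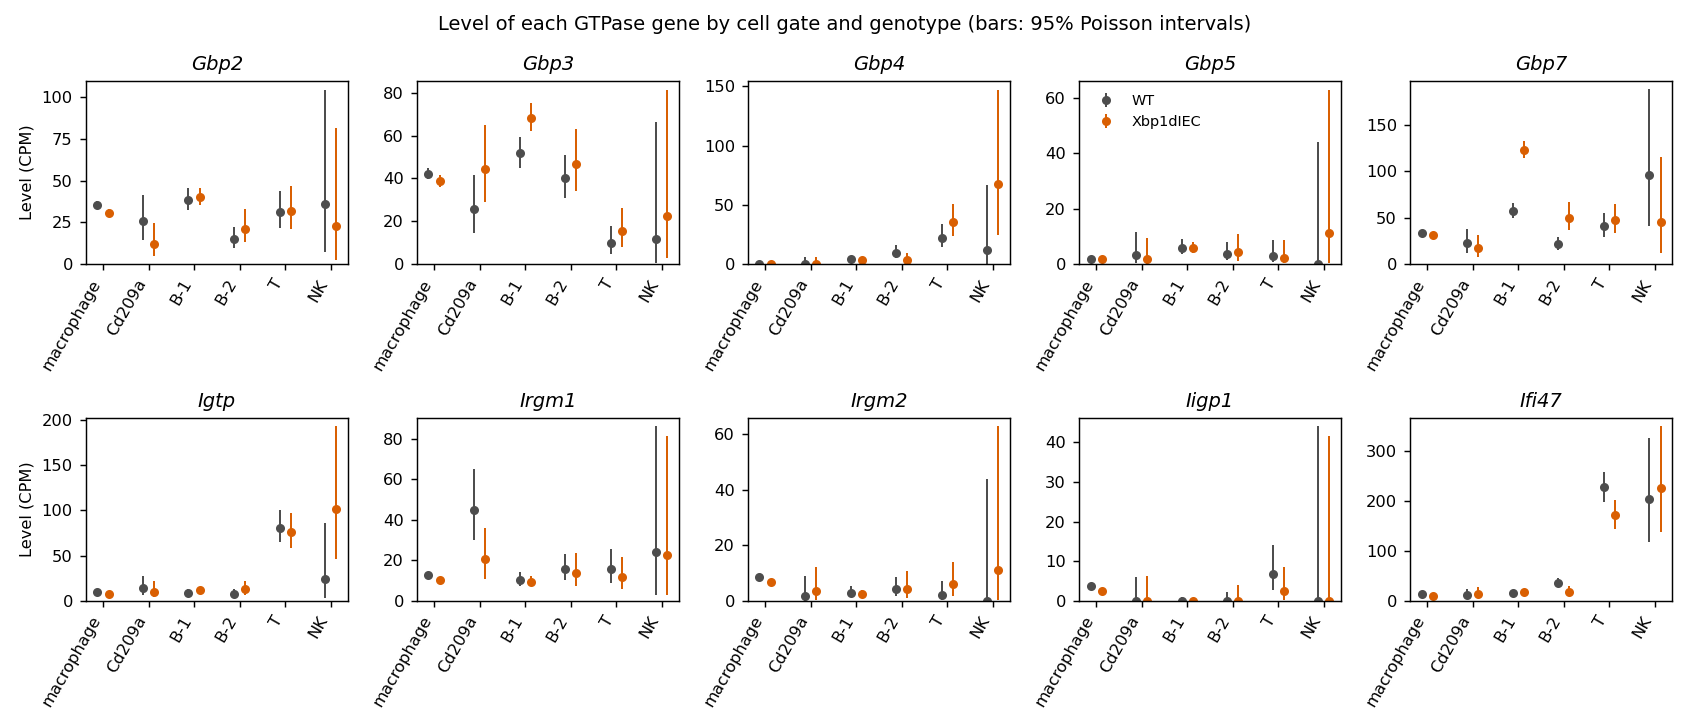
Level in CPM of each of the 10 genes (1 panel each, own y axis from 0) in 6 gates for WT (grey) and Xbp1dIEC (orange), with 95% Poisson intervals. Ifi47, Igtp and Gbp4 are high in T cells, and for each of them the NK interval overlaps that of T cells in both libraries. Gbp7 separates the genotypes in B-1 cells at 57.1 and 122.8 CPM. NK intervals are wide because few UMIs were counted.

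Over the 12 gate by genotype sums, Ifi47 tracked Gbp4 (Pearson r = 0.91) and Igtp (0.88), and ran opposite to Gbp3 (-0.83). The genes outside the family whose log2(CPM + 1) was most like the summed level were Klhdc2 (0.95), Gm12216 (0.93), Rab37 (0.93), the chemokine receptor Cxcr6 (0.93), Ipcef1 (0.93) and the chemokine receptor Cxcr3 (0.93), out of 3996 compared. These values describe 12 sums from 2 libraries that share depth within a gate, and they carry no p. After thinning, 25.9% of WT and 23.7% of Xbp1dIEC macrophages had at least 1 of the genes, and 3.81% and 2.97% had at least 2, against 3.28% and 2.63% for genes found independently of each other. In B-1 cells 6.49% and 9.01% had at least 2, against 5.08% and 8.64%. In T cells 14.1% and 15.8% had at least 2, against 15.7% and 14.0%, and in NK cells 22.7% and 21.4%, against 19.5% and 23.1%.

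In macrophages the family was slightly lower in Xbp1dIEC than in WT. The sum stood at 161 and 138 CPM, a log2 ratio of -0.22 (-0.29 to -0.15), with the IRGs at 47.9 and 35.5 CPM (log2 ratio -0.44, -0.57 to -0.30) and the GBPs at 113 and 102 CPM (-0.14, -0.22 to -0.06). Of the 9 genes with at least 20 UMIs, 8 had less in Xbp1dIEC and their median log2 ratio was -0.32, while 60.8% of 11416 genes had less and the median over all of them was -0.07. One, Ifi47, was past 1.5-fold lower and none higher, against 5.27% of all genes lower and 2.17% higher. Ifi47 went from 13.1 CPM to 8.69 CPM, a log2 ratio of -0.59 (-0.87 to -0.32) that lay at the 1.5-fold line and was -0.52 with TMM scaling, and Iigp1 from 3.62 to 2.47 CPM (-0.55, -1.09 to -0.03). Igtp stood at 9.99 and 7.32 CPM (-0.45, -0.76 to -0.14), but at a log2 ratio of 0.18 when cells were thinned to 2000 UMIs, with 1.82% and 1.98% of cells positive. Irgm1 and Irgm2 had ratios of -0.32 and -0.34, Gbp2 -0.20, Gbp3 -0.13 and Gbp7 -0.10, and Gbp5 was at 0.10 with an interval spanning 0. In thinned cells Gbp2 was at -0.027, Gbp7 at -0.018, Gbp3 at -0.245 and Irgm2 at -0.805.

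The same direction was found in both macrophage subsets for the sum. In Gata6 macrophages, the large resident cells, the sum was at 158 and 137 CPM (log2 ratio -0.20, -0.31 to -0.10). In Folr2 macrophages it was at 178 and 123 CPM (-0.54, -0.90 to -0.19) from 95 and 93 cells. The 2 intervals overlapped. WT macrophages had the greater median depth, 9952 UMIs against 8115, and with cells thinned to 2000 UMIs the log2 ratio of the sum was -0.18.

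**Figure D3:**
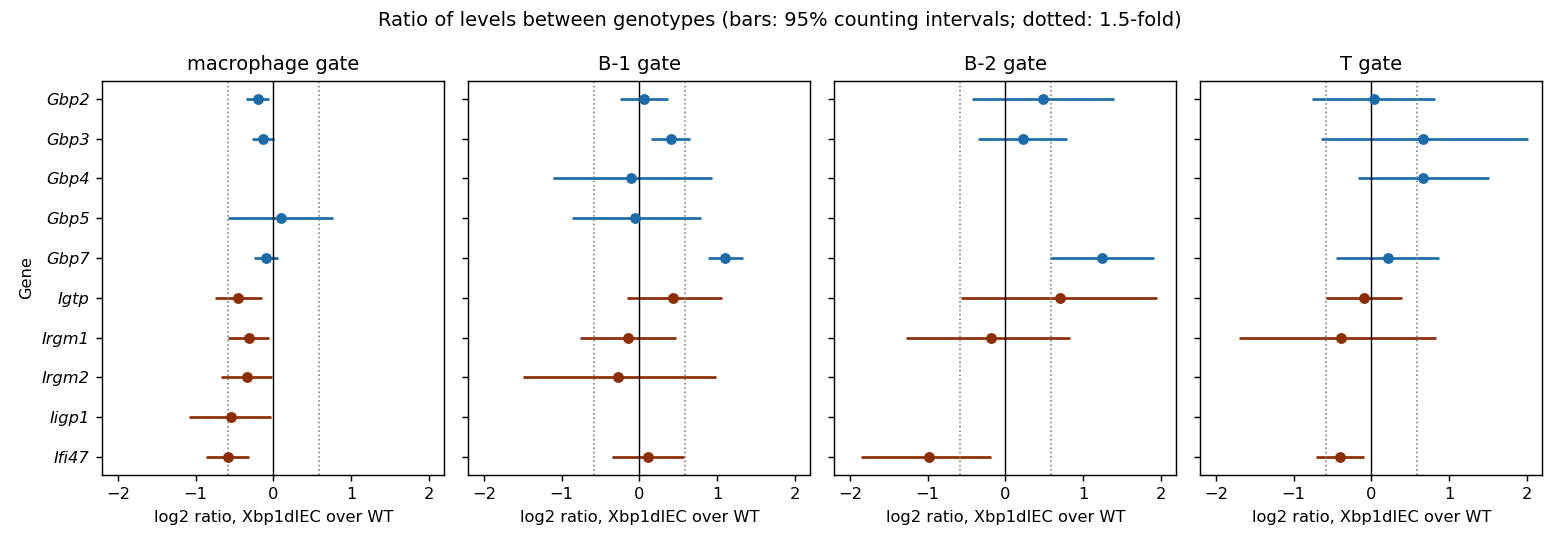
Log2 ratio of level, Xbp1dIEC over WT, for each gene with at least 20 UMIs in the gate (x axis, with 95% counting intervals; GBPs blue, IRGs brown; dotted lines at 1.5-fold), in macrophage, B-1, B-2 and T gates. Macrophage points sit at or left of 0 except Gbp5, and Gbp7 lies right of the dotted line in B-1 and B-2 cells.

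In B-1 cells the family was higher in Xbp1dIEC, through few genes. The sum was at 196 and 283 CPM, a log2 ratio of 0.53 (0.40 to 0.65), with the GBPs at 157 and 241 CPM (0.61, 0.48 to 0.75) and the IRGs at 38.9 and 41.9 CPM (0.11, -0.19 to 0.41). Of the 9 genes with at least 20 UMIs, 5 were higher and 4 lower, with a median of 0.06 beside 0.00 for all 9510 genes. One gene was past 1.5-fold higher and none lower, against 7.36% and 5.85% of all genes, a share near the background. That gene was Gbp7, from 57.1 CPM (49.7 to 65.2) in WT to 122.8 CPM (114.2 to 131.9) in Xbp1dIEC. Its log2 ratio was 1.11 (0.89 to 1.33), higher than that of 98.6% of the genes. The share of B-1 cells with a Gbp7 UMI was 37.7% and 62.8%, and 10.4% (7.53% to 13.9%) and 20.9% (17.7% to 24.4%) after thinning, so the intervals lay apart on both scales. Gbp3 was at 51.7 and 68.4 CPM (0.40, 0.15 to 0.66), but at a log2 ratio of 0.126 when cells were thinned to 2000 UMIs. Gbp2, Gbp5, Irgm1 and Ifi47 had intervals spanning 0.

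The makeup of the B-1 gate differed between the libraries, and values were therefore taken within it. Cells of a state marked by Fbxw13, Prkar2b and Fgd2 numbered 108 in WT and 287 in Xbp1dIEC, and cells of a state marked by Ahnak2, Phgdh and Ass1 numbered 191 and 181. Gbp7 was at 63.2 and 137.9 CPM in the Fbxw13 state (log2 ratio 1.13, with an interval above 0) and at 56.0 and 94.3 CPM in the Ahnak2 state (0.75, 0.40 to 1.11). The sum gave 0.47 and 0.30 in the same states. Gbp3 gave 0.135 (-0.247 to 0.531) in the Fbxw13 state and 0.491 (0.074 to 0.913) in the Ahnak2 state. Gbp2 gave 0.088 and -0.250 there, both with intervals spanning 0. In B cells that met neither the B-1 nor the B-2 rule, 1036 in WT and 1084 in Xbp1dIEC, Gbp7 was at 45.1 and 111.8 CPM (1.31, 1.12 to 1.51), Gbp3 at 46.8 and 73.5 CPM (0.65, 0.45 to 0.86) and Gbp2 at 23.8 and 38.3 CPM (0.69, 0.40 to 0.98). In these cells Gbp4 was lower, at 6.37 and 3.41 CPM (-0.902, -1.670 to -0.158). Their IRG sum was at 57.5 and 48.7 CPM (-0.241, -0.452 to -0.029). In the Ahnak2 state Irgm1 was lower, from 22 and 9 UMIs (-1.235, -2.537 to -0.058). Gbp7 was thus higher in Xbp1dIEC in each of these B cell groups, though not every member was, and its macrophage ratio was -0.10 (-0.25 to 0.06). Whether the ratios in B cells and macrophages differ between genotypes beyond these 2 libraries cannot be tested.

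Gbp2b, the mouse gene also called Gbp1, stood out among the other family genes. It lies between Gbp3 and Gbp2 and gave 13 UMIs (3.47 CPM) in WT B-1 cells and 240 UMIs (38.8 CPM) in Xbp1dIEC B-1 cells, a log2 ratio of 3.48 (2.68 to 4.41) that ranked number 4 among 9510 genes. In macrophages it was at 43.1 and 47.2 CPM (0.13, 0.00 to 0.26). Relative to macrophages of the same library, Gbp2b in B-1 cells was at 8.05% in WT and 82.1% in Xbp1dIEC, with Lyz2 at 2.84% and 1.81% and Apoe at 5.92% and 3.31%. The WT share of Gbp2b rested on 13 UMIs, with an interval of 1.845 to 5.926 CPM, so its place relative to the share of Apoe was uncertain. How much of it was macrophage RNA was not tested. The ratio was 3.64 in the Ahnak2 state, 3.55 in the Fbxw13 state and 3.81 in B cells of neither kind, and B-2 cells gave 1 and 8 UMIs. Along the cluster the B-1 log2 ratios ran -0.05 for Gbp5, 1.11 for Gbp7, 0.40 for Gbp3, 3.48 for Gbp2b and 0.06 for Gbp2, and at both ends of the cluster the intervals, of Gbp5 and Gbp2, spanned 0. The nearest listed neighbours had ratios of 0.28 (Pdlim5), -0.28 (Kyat3), -0.37 (Gtf2b) and 0.03 (Pkn2), each with an interval spanning 0. After thinning, 123 Xbp1dIEC B-1 cells had Gbp7, 46 had Gbp2b and 13 had both, against 9.62 for genes found independently of each other. Gbp2b was chosen for description after its values had been seen.

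**Figure D4:**
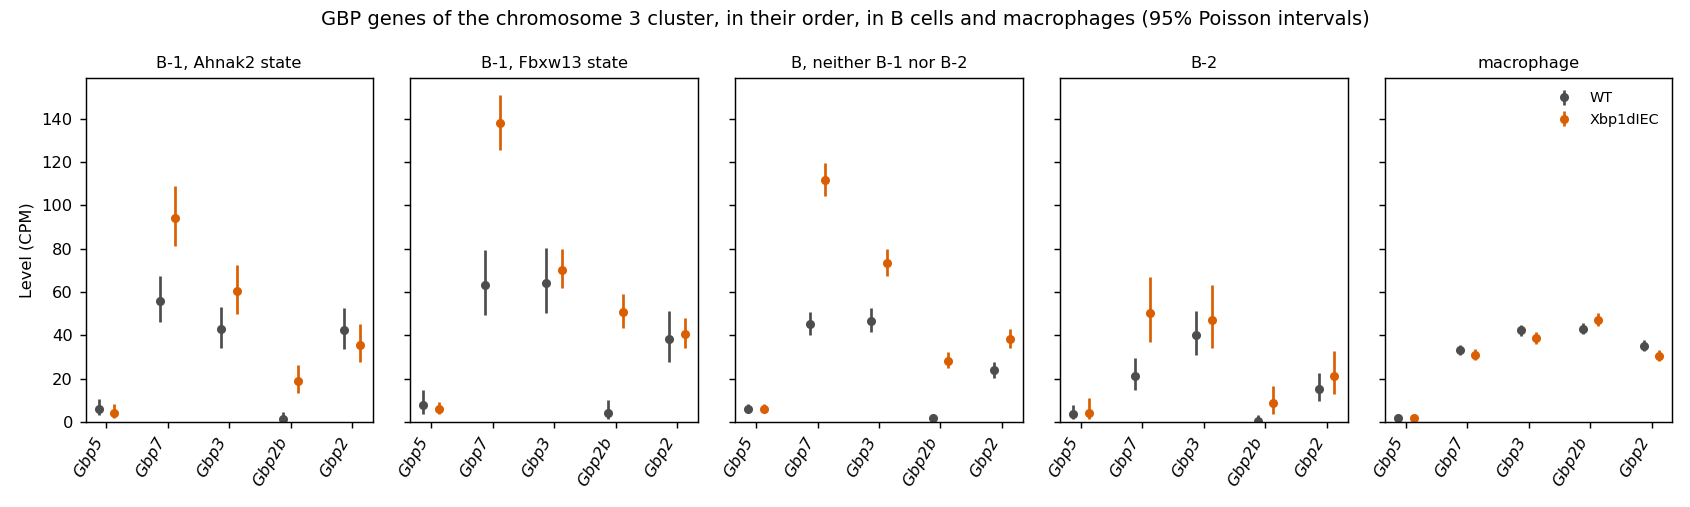
Level in CPM of the chromosome 3 GBP genes, in their order along the chromosome (x axis), in 4 groups of B cells and in macrophages, for WT (grey) and Xbp1dIEC (orange), with 95% Poisson intervals. Gbp7 is higher in Xbp1dIEC in every B cell panel. So is Gbp2b except in B-2 cells, where 1 and 8 UMIs are too few for a call. In macrophages Gbp7 is at 33.2 and 31.1 CPM and Gbp2b at 43.1 and 47.2 CPM.

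In B-2 cells the sum was at 154 and 175 CPM (0.19, -0.11 to 0.48), with GBPs and IRGs apart in direction: the GBPs were at 89.9 and 126 CPM (0.49, 0.12 to 0.84) and the IRGs at 63.8 and 49.1 CPM (-0.38, -0.91 to 0.13). Of 6 genes with at least 20 UMIs, 2 were past 1.5-fold higher (Gbp7 and Igtp) and 1 lower (Ifi47), against 5.99% and 9.97% of 7043 genes. Gbp7 was at 21.3 CPM (35 UMIs) and 50.1 CPM (47 UMIs), a log2 ratio of 1.24 (0.58 to 1.91) that was 0.56 when each cell weighed the same. Ifi47 was at 35.8 CPM (59 UMIs) and 18.1 CPM (17 UMIs; -0.98, -1.86 to -0.19), and the Igtp interval spanned 0, with a ratio of 0.70 that fell within 1.5-fold under some alternatives (lowest 0.35).

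In T cells the sum was at 439 and 399 CPM (-0.14, -0.34 to 0.07). The IRGs were at 332 and 267 CPM (-0.31, -0.56 to -0.07) and the GBPs at 107 and 133 CPM (0.31, -0.09 to 0.70). Ifi47 had a ratio of -0.41 (-0.72 to -0.10), with -0.50 in the Cd8 subset and -0.24 in Cd8-negative cells, where the intervals spanned 0. Of 7 genes with at least 20 UMIs, 2 were past 1.5-fold higher (Gbp3 and Gbp4, at 0.66 and 0.67, both with intervals spanning 0 and with lowest values of 0.36 and 0.17 under the alternatives) and none lower, against 7.59% and 9.36% of 5985 genes, and their median of 0.04 stood beside 0.00 for all genes. In NK cells only Ifi47 reached 20 UMIs, at 203 and 226 CPM (0.15, -0.85 to 1.18), and it was not past 1.5-fold, against 13.8% of 1134 genes higher and 9.79% lower. A wider set of cytotoxic lymphocytes, 129 and 128 cells, was picked by UMIs of Nkg7, Ccl5 and Klrk1 with no limit on T or NK genes. It shared cells with the T gate and was not a separate measurement of NK cells. This set gave 209 and 187 CPM for Ifi47 and 405 and 413 CPM for the sum (0.03, -0.24 to 0.30).

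In Cd209a cells the sum was at 149 and 123 CPM (-0.28, -0.74 to 0.18). Of 4 genes with at least 20 UMIs, 1 was past 1.5-fold higher (Gbp3) and 2 lower (Gbp2 and Irgm1), against 8.5% and 13.7% of 4988 genes. Irgm1, at 28 and 12 UMIs, had a ratio of -1.13 (-2.24 to -0.11), and the intervals of Gbp2 and Gbp3 spanned 0. Gbp2, at -1.10, was at -0.37 with stricter gates, and Gbp3, at 0.79, was at -0.056 with looser gates, so neither stayed past 1.5-fold. The macrophage marker list in these cells summed to 24937 CPM in WT and 15346 in Xbp1dIEC, with all 7 markers found in both, and its part in the Irgm1 difference was not tested.

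Genes of the interferon pathway were listed alongside. Macrophages of Xbp1dIEC had less of the type I interferon targets: 8 of 9 measured were lower, 5 past 1.5-fold, with a median log2 ratio of -0.59. Over all genes in this gate 60.8% were lower and 5.27% past 1.5-fold lower. Examples were Rtp4 at 94.1 and 60.5 CPM (-0.64), Oasl2 at 26.9 and 17.3 CPM (-0.64) and Isg15 at 18.1 and 12.02 CPM (-0.59). All 6 measured interferon gamma targets outside the family were lower, 1 past 1.5-fold, with a median of -0.45 beside -0.07 for all genes, as for the peptide transporter Tap1 at 21.1 and 15.2 CPM (-0.48) and the immunoproteasome subunit Psmb9 at 93.6 and 69.8 CPM (-0.42). Irf1 was at 17.2 and 17.1 CPM (-0.01). Of 18 measured pathway genes 11 were lower and 7 higher, 1 past 1.5-fold. The autophagy and inflammasome partners gave 9 lower and 5 higher of 14, none past 1.5-fold.

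In B-1 cells, where Gbp7 and Gbp2b were higher, most genes of the target lists were lower. All 5 measured type I targets were lower in Xbp1dIEC, 3 past 1.5-fold (median -0.79), against 49.5% and 5.85% of all genes, and 4 of 6 interferon gamma targets were lower (median -0.22), as for Tap1 at 49.6 and 32.0 CPM (-0.63). Of 16 measured pathway genes 11 were lower and 5 higher, with 1 past 1.5-fold lower and 2 higher. The first was Irf9, at 42.1 and 25.4 CPM (-0.73). The others were Socs1, an inhibitor that interferons induce, at 19.2 and 44.1 CPM (1.20), and the kinase gene Tyk2, at 9.86 and 16.5 CPM (0.74). Interferon gamma itself gave 3 UMIs in WT NK cells and 2 in Xbp1dIEC T cells and 1 in Xbp1dIEC macrophages. The receptor chain Ifngr1 was at 425 and 437 CPM in T cells and at 918 and 744 CPM in NK cells, against 76.7 and 74.5 CPM in macrophages and 49.9 and 42.7 CPM in B-1 cells. Ifngr2 ran the other way, at 53.1 and 46.8 CPM in macrophages and 21.5 and 22.5 CPM in T cells.

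Among other family genes, 12 of 15 were listed under 1 identifier. Gm4951, an IRG relative, was at 33.4 and 29.2 CPM in macrophages (-0.20) and at 0 in B-1 cells of both libraries. There a count of 0 allows up to 0.983 and 0.596 CPM. Gbp8 and Gbp9, which overlap Gbp4, gave 12.7 and 10.7 CPM and 13.7 and 8.30 CPM in T cells, from 7 to 14 UMIs each. In macrophages 8 of these genes were measured, 5 higher and 3 lower, none past 1.5-fold, with a median of 0.03.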

How the data were processed

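Peritoneal cells of 1 WT and 1 Xbp1dIEC library were measured by droplet sequencing with 10x 3′ v2 chemistry, per the labels' protocols. The deposited values are counts, UMIs per gene and barcode, as whole numbers. Per the submitters' processing notes the build was mm10 and the tools included Seurat 2.3.0 and Cell Ranger 2.2.0, and the annotation and barcode filter behind them are not given in the sources. A barcode was kept at a minimum of 500 UMIs and 200 genes with a mitochondrial share under 10%, a filter that dropped 6 from WT and 20 from Xbp1dIEC. Scrublet in scanpy 1.11.5 (expected rate 5%) called and removed 140 (2.26%) and 113 (1.82%) doublets. UMIs were summed by gate and library, in Python 3.11.15 with numpy 2.4.6 and scipy 1.17.1.

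The gates used lineage sums. Macrophages had 4 or more UMIs of Adgre1, Csf1r and Mertk, and Cd209a cells 3 or more of Cd209a. B cells had 3 or more over a list that included Cd79a, Cd79b and Ms4a1, not reported here in full, split by 2 or more of Bhlhe41, Zbtb32, Cd5, Spn and Ctla4 (B-1) or of Fcer2a and Cr2 (B-2). T cells had 3 or more of Cd3d, Cd3e and Cd3g, and NK cells 3 or more of Ncr1, Klrb1c, Klre1 and Klra8. Other lineages were held to 1 UMI or less, except that the Cd209a gate set no limit on the macrophage genes. Ungated were 2682 WT and 2616 Xbp1dIEC cells, of which 1047 and 629 carried lineage genes of 2 kinds.

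A level carries an exact Poisson interval, a share of cells an exact Clopper-Pearson interval and a ratio an exact conditional binomial interval, each at 95%. Genes with 20 or more UMIs over both sums counted as measured, and the call line was 1.5-fold. A gate at 0 was set to 3 UMIs, and no ratio was given where that lay above the other value. No test between genotypes was run. The interval procedure was tested on simulated data. The named genes were the 10 members, listed family, interferon and vacuole genes, and the 6 most alike genes at 50 or more CPM. The members and lists were chosen with earlier results of these data known.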

Additional observations from a re-analysis of the deposited data

How the results depend on the processing

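Under 10 alternatives set out at the start (TMM scaling with edgeR 4.0.16, 1 or 10 CPM added, looser and stricter gates, doublets kept, a mitochondrial limit of 5%, thinning, equal cell weights, and totals without mitochondrial, ribosomal, haemoglobin and immunoglobulin genes) the log2 ratio of the summed level kept its sign in 5 of 6 gates, from -0.29 to -0.16 in macrophages and from 0.49 to 0.58 in B-1 cells. In B-2 cells it ran from -0.02 to 0.27. Gbp7 in B-1 cells ran from 0.99 to 1.27 and Ifi47 in macrophages from -0.75 to -0.30. Gbp3 in Cd209a cells, at 0.79, was -0.056 with looser gates; the cause was not tested. Of alternatives chosen after seeing the data, the summed B-1 ratio within the Ahnak2 state was 0.30 against 0.53 in the whole gate. The shares of all genes past 1.5-fold depended on the UMI minimum, and 23 of 24 alternative shares moved. In macrophages the share of genes 1.5-fold or more lower was 9.24% with no UMI minimum and 3% with a minimum of 100 UMIs. The share higher was 10.8% and 3.26% in B-1 cells, and 15.9% and 1.18% in T cells, under the same settings. No paired analysis was possible because each genotype had 1 library. TMM moved a gate's ratios by at most 0.08 (log2). Depth limits the NK and Cd209a gates most, and genes under 20 UMIs in a gate were given as values only.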
